A study of Homo sapiens with 4 samples.

Results

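KLHL15 is a protein-coding gene on the minus strand of human chromosome X, and 46 of the 211947 Argonaute PAR-CLIP regions of this series lay on it. The members were the minus-strand regions that overlap the interval X: 24001820 to 24045303 of the genome build hg19. Of these, 28 lay in a stretch called the last exon end (24001820 to 24007146, 5327 nt), on the 3′ side of the RNA. The other 18 lay in the rest of the gene. The stretch was selected on its measured values in this same list, its high scores and the density of its regions, and its edges are the outer edges of its first and last regions. Its scores and coverage are therefore a description, and none of them was tested. The name of the stretch comes from its definition, and the edges of exons and of the transcript were not checked against an hg19 annotation. Which bases of the stretch are coding and which are 3′ untranslated was not analysed here.

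The series comprised 4 libraries from HEK293, an established human embryonic kidney cell line: 3 from AGO1 and 1 from AGO2 immunoprecipitations. PAR-CLIP feeds cells 4-thiouridine, a photoreactive uridine analogue, joins RNA to the proteins that touch it by irradiation with long-wave ultraviolet, and reads out the RNA that is precipitated with 1 chosen protein. Per the labels, the AGO1 libraries came from cells that stably express proteins with a His/FLAG/HA tag, grown with 200 µM 4-thiouridine, and were precipitated with an antibody to FLAG. The AGO2 library came from cells grown with 100 µM and was precipitated with the antibody 11A9 to AGO2. Its own labels name no tag, whereas the series text speaks of tagged lines for both proteins. All cells were labelled for 16 h and crosslinked at 365 nm. The data were 1 pooled list with 1 score per region, so no value below has a replicate error, AGO1 and AGO2 cannot be told apart, and the read depth is unknown. The score is a whole number from 1 to 1000, and the sources used here do not say what it measures.

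The protein encoded by KLHL15 belongs to the BTB-Kelch family. Its BTB domain binds the scaffold CUL3 and its Kelch repeats bind the substrate, so that it acts as a substrate adaptor of a CUL3 ubiquitin ligase. Known substrates are a regulatory B′ subunit of the phosphatase PP2A, PPP2R5B, and the DNA-end resection factor CtIP, encoded by RBBP8. The gene has been linked to X-linked intellectual disability. Argonaute proteins hold microRNAs and pair them with target RNAs, in animals most often in the 3′ untranslated region, through the seed near the 5′ end of the microRNA. A crosslinked region is a candidate place of contact between Argonaute and the RNA.

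Along the gene, high scores lay at the 3′ end. The 28 regions of the last exon end had a lowest score of 2, a median of 82.5 (interquartile range 32.3 to 121) and a highest of 342. The 18 regions in the rest of the gene had a lowest score of 1, a median of 6 (2.25 to 13) and a highest of 70. The number and median of the last exon end depend on how the list divides it: with regions up to 10 nt apart joined, it held 12 regions with a median highest score of 128.5. As deposited, both sets of scores overlapped, since 12 of the 28 regions of the last exon end had scores no higher than 70, the strongest elsewhere. The median over all 211672 nuclear regions was 3 (2 to 5).

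The last exon end made up 12.3% of the length of the interval, held 60.9% of its regions and carried 91.9% of its summed score (3022 of 3288). It had 5.26 regions per kb, against 0.472 in the rest of the gene, an 11.1-fold higher density. Introns are part of the rest of the gene, and its density over exons was not analysed here. Per covered nucleotide, which takes out the uncovered stretches, the summed score was 0.600 in the last exon end and 0.228 in the rest, 2.64-fold higher. The same quantity over all nuclear regions was 0.143, which put the last exon end 4.19-fold and the rest of the gene 1.59-fold above it.

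**Figure D1:**
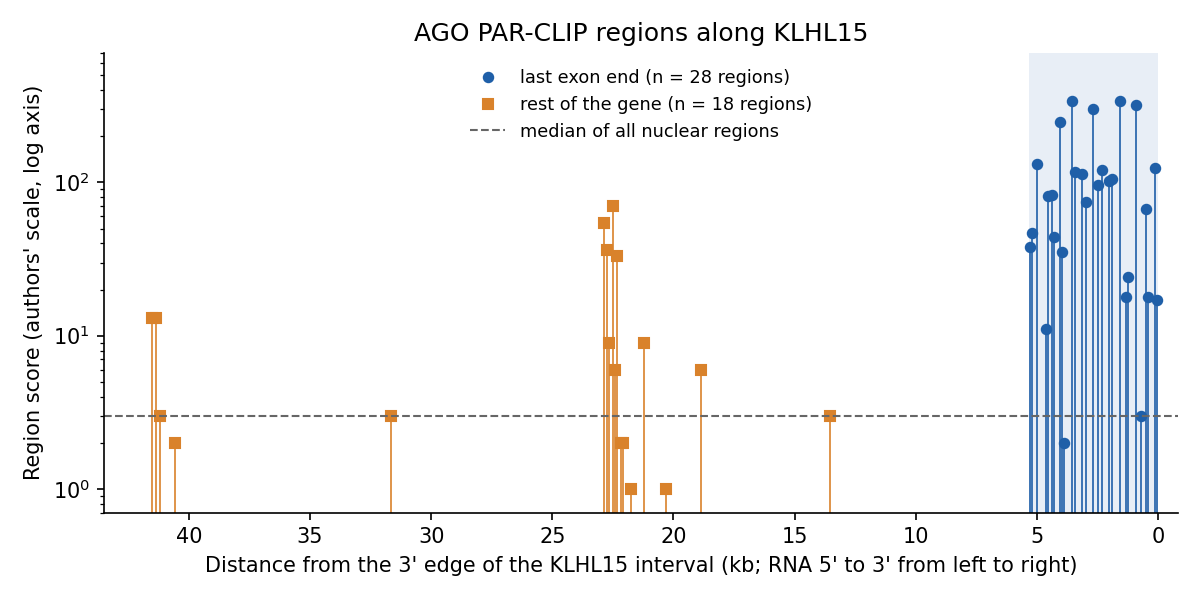
Score of each of the 46 KLHL15 regions (log axis, the authors' scale) by distance of its 1-nt inner position from the 3′ edge of the interval in kb, with the RNA running from 5′ on the left to 3′ on the right. Blue circles in the shaded band are the 28 regions of the last exon end, orange squares the 18 regions elsewhere, and the dashed line is the median of all nuclear regions, 3; the highest score in the band is 342 and outside it 70.

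Of the 28 regions of the last exon end, 12 had a score of at least 100, and of the 18 in the rest, 0 had. The share over all nuclear regions was 0.248%, and 0.364% among those in arrays, which are runs of at least 10 regions on 1 strand with gaps of up to 1000 nt. Since scores chose the stretch, nothing is read from this contrast. At a score of at least 10 the counts were 26 of 28 and 6 of 18, against 11% of all nuclear regions and 16.4% of those in arrays. KLHL15 held 46 of the 7132 regions of chromosome X (0.645%), 12 of its 39 regions with a score of at least 100, and 7.41% of its summed score.

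The 5 strongest regions of the last exon end had other regions between them and lay away from both of its ends. Taken from 5′ to 3′ along the RNA, they lay at 24005815 to 24005995 (181 nt, score 249), 24005299 to 24005678 (380 nt, score 342), 24004439 to 24004749 (311 nt, score 300), 24003208 to 24003635 (428 nt, score 339) and 24002552 to 24003011 (460 nt, score 318). Together they carried 51.2% of the summed score of the stretch, and the strongest alone carried 11.3%. The 12 strongest, those at 100 or more, carried 78.2%. None of the KLHL15 regions stood at 1000, the highest value in the list, so their sums were not cut off by it.

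The weakest regions sat directly beside strong ones, which the choice of a dense stretch of high scores makes likely. The 6 lowest scores, with a tie for the fifth place, were 2 (24005683 to 24005712), 3 (24002492 to 24002531), 11 (24006437 to 24006489), 17 (24001820 to 24001867), 18 (24002197 to 24002296) and 18 (24003145 to 24003196). The region of score 2 was 30 nt wide and began 4 nt from the edge of the region of score 342. The region of score 3 was 40 nt wide and lay 20 nt from the region of score 318. The scores of these neighbours differed 171-fold and 106-fold, across gaps shorter than the weak regions themselves. Over the 27 pairs of neighbours the median ratio of the higher to the lower score was 3.72, with 7 pairs at 10 or more and 9 pairs under 2. The same ratio in other arrays was not analysed here. Whether regions so close are separate binding sites was not tested.

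**Figure D2:**
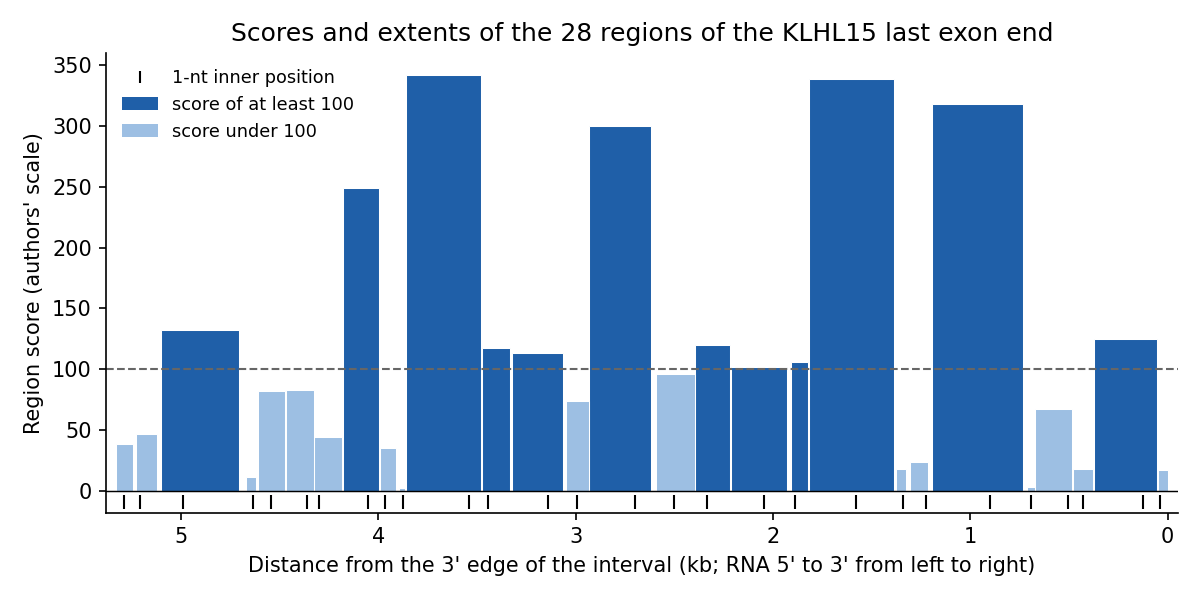
Extent (x axis, distance from the 3′ edge of the interval in kb, RNA 5′ on the left) and score (y axis, the authors' scale) of the 28 regions of the KLHL15 last exon end, as bars of true width. Dark bars reach the dashed line at a score of 100 (12 regions), and pale bars do not (16 regions). Black ticks mark the 1-nt inner position of each region. The 5 tallest bars, with scores of 249 to 342, have other bars between them and lie away from both ends of the stretch.

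Regions ran from end to end of the last exon end, which is given by the choice of its edges and density. Summed in windows of 500 nt from the 3′ edge by inner position, all 11 windows held 2 or 3 regions. The sums ran from 42 in the window from 1001 to 1500 nt to 470 in the window from 2501 to 3000 nt. The last window, of 327 nt at the 5′ side, had a sum of 85, and the first, at the 3′ edge, had 160. These sums were lower at both ends than in the middle, apart from the low window from 1001 to 1500 nt. The 2 regions counted in that window had scores of 18 and 24. Each score was counted whole at its inner position, though regions were up to 460 nt wide. Regions of scores 318 and 339, counted in the windows beside it, reach into the low window, and one of 132 into the last. The low sums there thus depend on this counting and do not show a lack of strong regions. Cut at its midpoint, the stretch had 13 regions with a median score of 96 on the 3′ side and 15 with a median of 82 on the 5′ side, and 6 regions on each side reached 100. The 3′ side carried 44.8% and the 5′ side 55.2% of the summed score.

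Almost no sequence of the stretch was left between regions. They covered 5037 of its 5327 nt (94.6%), and the 27 gaps between neighbours had a lowest value of 1 nt, a median of 7 nt and a highest of 36 nt. Of these gaps, 16 were at most 10 nt long (59.3%), and 7 were at most 3 nt. Over the 81118 gaps in nuclear arrays the median was 55 nt, and 16.7% were at most 10 nt. The inner positions, 1 per region, lay farther apart, with a median distance of 186 nt (interquartile range 95 to 291, range 59 to 355).

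Regions of the last exon end were wide. Their median width was 141 nt (30 to 460), against 48 nt (22 to 189) in the rest of the gene and 32 nt over all nuclear regions. A width of at least 100 nt was found in 19 of 28 regions and in 4 of 18, against 1.79% of all nuclear regions. Of these 19 wide regions 11 had a score of at least 100, and of the 4 elsewhere 0 had, where 7.07% of all nuclear regions at least 100 nt wide did. Width and score went together, as they did in the whole list: the 12 regions at 100 or more had a median width of 298 nt, the 9 with scores from 35 to 96 had 141 nt, and the 7 with lower scores had 52 nt. Spearman's rho of width and score was 0.902 over these 28 regions, 0.695 over the 18 in the rest and 0.452 over all nuclear regions. The regions share their libraries and are not independent, so rho is given as a description.

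Scores were also high for regions of their width class, in the classes from 50 nt upward. Width was not matched inside a class: the 8 regions in the class of 200 to 499 nt were 263 to 460 nt wide. How the outside regions spread within a class was not analysed here, so differences of width inside a class were not taken out. In the class of 200 to 499 nt, the 8 regions of the last exon end had scores from 102 to 342 with a median of 216, while the 237 nuclear regions outside KLHL15 had a median of 75 (interquartile range 51 to 129). In this class 34.2% of the outside regions reached 100, and all 8 of the last exon end did. In the class of 100 to 199 nt, the 11 regions had scores from 18 to 249 with a median of 82, against 23 (14 to 40) for 3524 outside regions. In the class of 50 to 99 nt, the 6 regions had scores from 11 to 106 with a median of 29.5, against 6 (4 to 12) for 31671 outside regions. The 3 regions narrower than 50 nt had scores of 2, 3 and 17, and the outside median for 30 to 49 nt was 3.

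Counted over all classes, 25 of the 28 regions of the last exon end scored above the outside median of their width class. In the rest of the gene this held for 11 of 18. The 4 regions of 100 to 199 nt in the rest had scores of 6, 33, 54 and 70, and 3 of them lay above the outside median of 23. These counts use the scores that led to the choice of the stretch and are a description. The share of outside regions above the median of their own class was not analysed here, and tied scores can lower it. Nothing is therefore read from the count of 11 of 18. Per nucleotide of width, the highest values in the last exon end were those of the region of score 249 (1.38 per nt) and of a region of 86 nt with a score of 106 (24003643 to 24003728, 1.23 per nt).

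**Figure D3:**
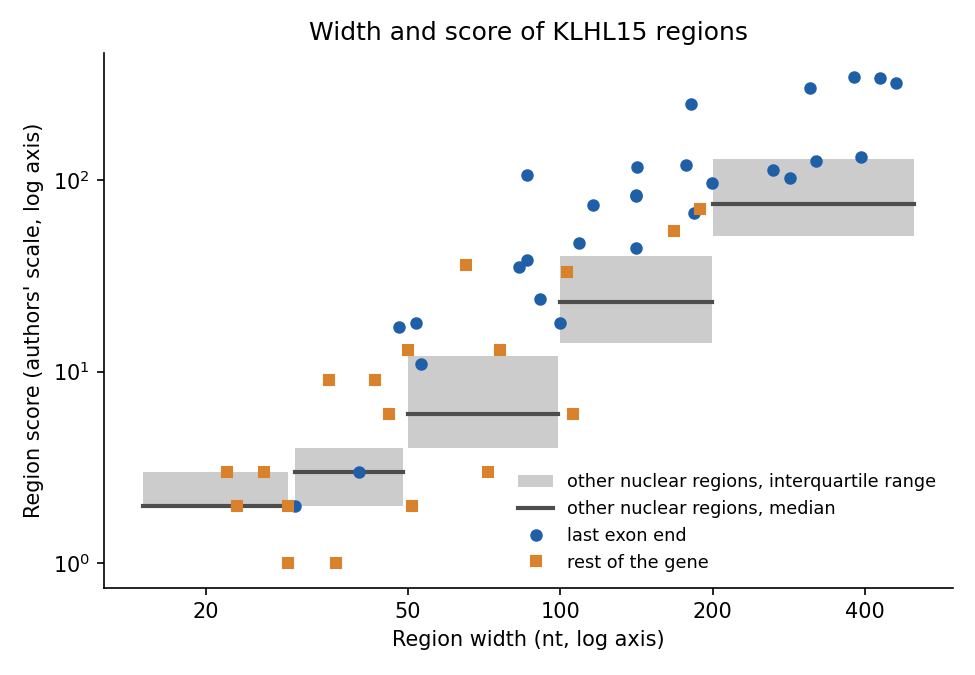
Score against width (both log axes) of the 28 regions of the KLHL15 last exon end (blue circles) and the 18 in the rest of the gene (orange squares). Grey bands and dark lines give the interquartile range and median of the nuclear regions outside KLHL15 in 5 width classes from 15 to 499 nt. Above the line of their class lie 25 of the 28 blue circles and 11 of the 18 orange squares. The share of outside regions above that line was not analysed here.

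Outside the last exon end, most signal lay in 1 place in the middle of the gene. From 24022118 to 24024794, 11 regions spanned 2677 nt, covered 29.4% of it and had a summed score of 223, which is 6.78% of the score of the gene. Their scores ran from 1 to 70 with a median of 9. The 8 regions at its 5′ side, from 24023888 to 24024794, covered 75.9% of 907 nt and carried 79.7% of the score of the rest of the gene. This shorter stretch held the 4 strongest regions outside the last exon end, with scores of 70 (24024279 to 24024467), 54 (24024627 to 24024794), 36 (24024544 to 24024608) and 33 (24024107 to 24024209). By its median score of 9, the run of 11 ranked 71 among the 4317 nuclear arrays, in a tie with others of the same median.

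A weaker group lay toward the 5′ end of the gene. From 24042377 to 24043397, 4 regions had scores of 2, 3, 13 and 13, and the pair of 13 (24043153 to 24043202 and 24043322 to 24043397) tied for the fifth place in the rest of the gene. Together they carried 0.943% of the score of the gene. The remaining 3 regions stood alone, at 24015367 to 24015388 (score 3), 24020604 to 24020709 (score 6) and 24033482 to 24033507 (score 3). Of the 18 regions in the rest, 5 had a score of 1 or 2 (27.8%), against 1 of 28 in the last exon end and 49.4% of all nuclear regions. Which of these regions lie in exons or introns was not analysed here.

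The covered stretch was set off by long gaps on both sides. Its edges are those of its outermost regions, so that a gap follows them is given by the choice of the stretch. The outermost regions inside it had scores of 38 (24007061 to 24007146) on the 5′ side and 17 (24001820 to 24001867) on the 3′ side. On the 5′ side the nearest minus-strand region, of score 3, followed after 8220 nt. On the 3′ side, past the lower edge of the gene interval, the nearest one lay 102823 nt away (23898971 to 23898996, score 2). That edge is also the edge of the outermost region. The last region before the upper edge of the gene ended 1906 nt from it, and the next minus-strand region beyond that edge lay 27032 nt away with a score of 3. No region of the plus strand lay within the gene, and the nearest ones were 27532 nt above it (score 4) and 197493 nt below it (score 104). In the RefSeq table of GRCh38.p14, used here for the order of genes alone, the neighbouring protein-coding genes are CXorf58 below and EIF2S3, which encodes a subunit of the translation initiation factor eIF2, above.

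The inner position, a column that the choice of the stretch did not use, lay on both sides of the middle of the regions. On a scale from 0 at the 5′ edge to 1 at the 3′ edge of the RNA, its median was 0.55 in the last exon end (range 0.157 to 0.907), and 15 of 28 regions lay above 0.5. In the rest of the gene the median was 0.68 and 14 of 18 lay above 0.5. The 102218 nuclear minus-strand regions outside KLHL15 had a median of 0.60, with 66.2% above 0.5. At a score of at least 100, the 12 regions of the last exon end had a median of 0.61 (interquartile range 0.309 to 0.711) and the 260 outside regions 0.49 (0.303 to 0.696), ranges that overlapped over most of their length. At scores of 10 to 99 the order was the opposite, 0.47 for 14 regions and 0.54 for 10812 outside regions. With so few regions and no replicates, no lean of the position was shown for KLHL15.

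Among the 4317 nuclear arrays, the last exon end had the highest median score, 82.5, and the highest summed score, covered share, median width and number of regions at 100 or more. The rank by median score rests on the minimum of 10 regions: with runs of at least 5 it was 2 of 9088, behind a run of 9 on chromosome 13 (plus strand, 92001952 to 92003802) with a median of 135. The median of the other arrays was 3 for the median score, 90 for the summed score, 25.8% for the covered share and 36 nt for the median width. The highest values among them were 25.5, 2896, 85.2% and 87 nt, and the largest number of regions at 100 or more was 5. Their highest single score was 1000, the highest value in the list. Whether that region lies in the array with the sum of 2896, which could then be cut off, was not analysed here. In other measures the last exon end was not at the top. By its highest single score, 342, it ranked 12, by summed score per covered nucleotide it ranked 11, and 731 other arrays had 28 or more regions. These measures depend on each other and on the score that chose the stretch, so the ranks are a description.

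The summed score of the last exon end was less concentrated in 1 region than in most arrays of 20 to 40 regions. Its strongest region held 11.3% of the sum. Among the 1307 other arrays of 20 to 40 regions the median of this share was 19.0% (interquartile range 14.4 to 25.5), and 132 of them were at or below 11.3%. The highest median score among those 1307 arrays was 19 and the highest covered share 84.9%. The stretch was chosen for its many high scores, which favours a low share of its strongest region. Arrays were not matched for their number of regions within 20 to 40, on which this share also depends. The comparison is thus a description.

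Likeness was taken by median score, in which the last exon end ranked 1, so the 5 arrays most like it had lower medians by construction. All 5 arrays were also shorter. They lay on chromosome 11 (plus strand, 9610041 to 9611544, median score 25.5), 17 (plus strand, 8089656 to 8091022, 25.5), X (plus strand, 17771182 to 17773108, 24), 6 (minus strand, 38643202 to 38645151, 23) and 10 (plus strand, 70742372 to 70744823, 20). They spanned 1367 to 2452 nt with 10 to 19 regions. Their covered shares were 79.6%, 30.1%, 82.4%, 67.8% and 72.5% in the same order, against 94.6% in the last exon end of KLHL15. Each held 1 to 3 regions with a score of at least 100, and their highest single scores were 112 to 186. The array on chromosome 17 reached a higher summed score per covered nucleotide, 0.891 against 0.600, with narrow regions (median 35.5 nt). Which genes hold these 5 arrays was not analysed here.

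**Figure D4:**
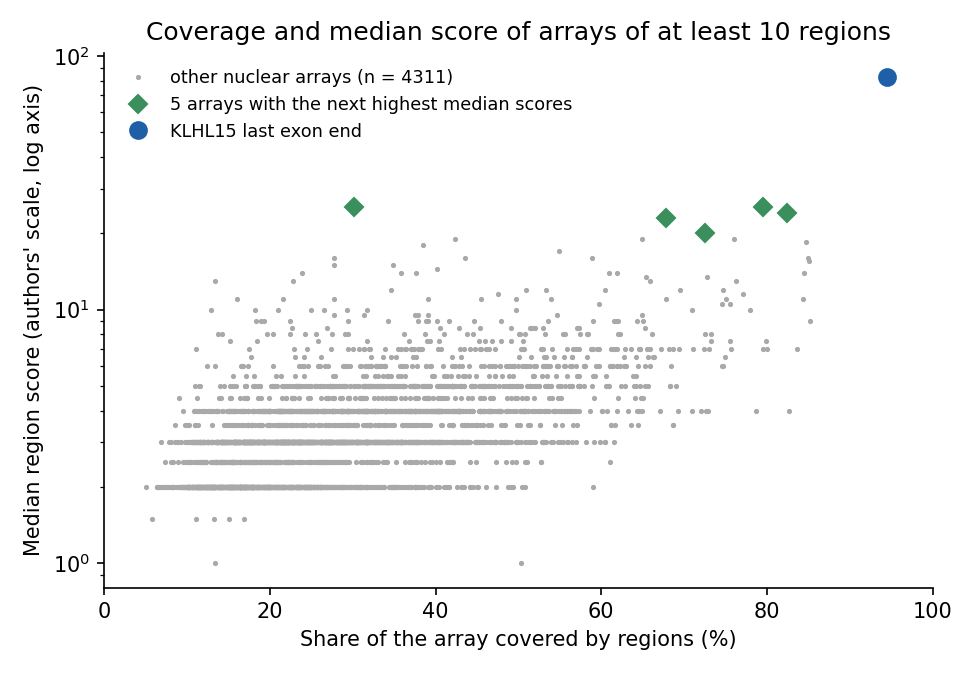
Median region score (log axis, the authors' scale) against the share of the span covered by regions (%), 1 point for each of the 4317 nuclear arrays. The blue circle is the KLHL15 last exon end at 94.6% and 82.5, green diamonds are the 5 arrays with the next highest median scores (20 to 25.5), and grey dots are all others.

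Region numbers, which the choice of the stretch did not use either, ran without a break over the gene. The 46 regions carried the consecutive numbers 210932 to 210977, so that 0 of 46 numbers were unused. Over the whole list 5521 numbers (2.54%) were carried by no region. The count of 0 of 46 lies near that share, so nothing about KLHL15 is read from it.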

How the data were processed

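The members and the stretch described here were chosen with earlier results of these data known. The list was deposited by the authors as a browser track. Per the file headers it is on hg19, and its name holds a library set (AGO_good) and a filter with the value 0.05. The submitters' processing notes name BWA 0.5.8c and hg19. The region caller stays not given in the sources used here, as do the filter's meaning and which libraries were pooled. Each region has a score, deposited by the authors as a whole number from 1 to 1000, and start, end and 1-nt inner coordinates, deposited by the authors and printed counting from 1.

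A region belonged to the gene or stretch if it overlapped it on the minus strand. Nuclear regions are those on the autosomes, X and Y. Regions printed singly are the 5 with the highest and the 5 with the lowest score in the last exon end (ties included), the 5 highest elsewhere and those at the edges; likeness of arrays was the median score. Other regions were named after their values were seen. Width classes, windows and the comparison of inner positions are descriptions; no test was run, since the pooled list has no replicates. The function for runs was tested on simulated data, where 300 of 300 arrays of 6017 regions were recovered. Planned counts of microRNA seed matches and of regions in genes of the CUL3 pathway need the hg19 sequence or annotation and were not run. Alternatives changed the score minimum, the overlap rule, the score scale, the joining of regions and the definition of arrays. Computations ran under Python 3.11.15 with pandas 2.3.3, numpy 2.4.6 and scipy 1.17.1, and plots were drawn with matplotlib 3.10.9.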

Additional observations from a re-analysis of the deposited data

How the results depend on the processing

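Of 26 alternatives for 5 results, 12 moved the value. A count or rank was called moved only if it changed by more than 1.5 times, any other value at any difference. Of the other 14, 11 could not have moved it: 8 changed the rule of membership, though no region crosses an edge of the stretch, and 3 set a score minimum of 2, the lowest score in it. These 11 say nothing about stability, and in the remaining 3 a count or rank stayed within 1.5 times. The number of regions in the last exon end, 28, was 27 at scores of 3 or more, 26 at 10 or more and 12 when regions up to 10 nt apart were joined. The median score, 82.5, was 83 at scores of 3 or more, 89.5 at 10 or more and 128.5 for the joined regions with their highest score. The covered share, 94.6%, was 94.0% at 3 or more and 93.2% at 10 or more. The share of the summed score of the gene, 91.9%, was 92.0% at 2 or more, 92.1% at 3 or more, 93.2% at 10 or more, 87.5% with scores above 100 set to 100 and 82.1% per nucleotide of width. The rank by median score, 1 of 4317, was 2 of 9088 with runs of at least 5 regions, where a run of 9 on chromosome 13 (plus strand, 92001952 to 92003802) had a median of 135, and 1 of 1123 with gaps up to 100 nt. A score minimum or joining leaves fewer regions by construction. The other seed length for microRNA matches was not run, for want of the hg19 sequence. No paired analysis was possible because the list has no column per library. The read depth is unknown and sets no limit that can be computed.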
